A study of Rattus norvegicus with 5 samples.

Results

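The lung nodules of a rat glioma were compared with the primary tumour that had not been irradiated, which used 4 of the 5 arrays of the series: the 3 samples titled as lung nodules No.1 to No.3 and the single sample titled as non-irradiated primary tumour. Every tumour was a xenograft of the rat glioma line C6-L in BALB/c nu/nu nude mice whose age was given as 6 weeks. The nodules were metastatic tumours of the lung taken 6 weeks after γ-irradiation. The primary tumour had received no irradiation and was taken 6 weeks after xenograft. The remaining sample, an irradiated primary tumour taken 6 weeks after irradiation, had its own mean in the fit and lent no spread to it. Nodules and primary therefore differed in site, in irradiation and in the starting point of the 6 weeks, and these cannot be told apart. Nothing in the labels says that the nodules are from different animals, so the p-values below measure no more than how these 3 samples spread, which may be technical. The primary was 1 array, so every p-value rests on the spread of the 3 nodules, which the primary was assumed to share.

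C6 cells carry features of astrocytes and of their precursors, and after injection outside the brain they grow as fast, poorly differentiated tumours. A tumour sample also holds host cells, among them vessels, macrophages, red blood cells and the tissue at its edge, which may be muscle or skin for a tumour under the skin and alveoli, airways or heart in the chest. Nude mice lack most T cells and keep macrophages, neutrophils and natural killer cells. Ionizing radiation breaks DNA and activates p53, which raises genes that halt the cell cycle, repair DNA or trigger cell death.

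Each value below is a log2 signal relative to the 75th percentile of its own array, so that 0 is the level of that percentile and 1 unit is a 2-fold difference. The array was designed for rat RNA, and RNA of the mouse host may be read by the same probes. How far each probe reads mouse RNA was not tested. A feature is a named gene, read by its brightest probe, or a probe without a gene name. It was measured when its signal stood well above background, by the scanner software's own criterion, on all nodules or on the primary. Between 69.8 and 73.5% of the gene spots of each array met that criterion. The log2 signals over all probes correlated at 0.985 to 0.992 between nodules and at 0.970 to 0.976 between a nodule and the primary. The arrays shared 1 slide, on which nodules and primaries occupied different rows, and the effect of row and that of group cannot be told apart.

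Most measured genes of mitosis, 10 of 28 targets of p53 and 4 globin genes rose in the nodules, and most skeletal muscle genes, the stromelysins and 6 of 20 genes of class I antigen presentation fell. Of 18594 measured features, 1835 rose (9.87%) and 1667 fell (8.97%) by limma with a Benjamini-Hochberg adjusted p under 0.05 and all 3 nodules on the same side of the primary. Of the 10937 named genes, 11.6% rose and 10.2% fell, 21.8% in all, and a gene list with a share of calls near that is given for its genes and not as a result about the list. The median difference over all features was 0.04, and 77.3% of the features had all nodules on 1 side. A plain count without a test found 1005 features at least 2-fold higher than the primary in every nodule (5.4%) and 1178 at least 2-fold lower (6.34%). For scale, 2.32 to 6.97% of the features differed 2-fold between a pair of nodules, and 17.4 to 20.2% between a nodule and the primary. The calls hung on which nodules entered: without nodule 2, limma called 0 features (smallest adjusted p = 0.0543; 5008 features had p under 0.05 before adjustment), without nodule 3 it called 134 higher and 162 lower, and without nodule 1 it called 3379 and 3065. The 2-fold counts were 1155 to 1356 higher and 1266 to 1447 lower when any 1 nodule was left out. By this rule the groups do not overlap for any gene said below to have risen or fallen. These genes are among 282 called genes followed in the same way: 0 of 282 kept the call without nodule 2 (adjusted p from 0.0543 to 0.207), 66 kept it without nodule 3 and 280 without nodule 1, and 0 changed direction. Folds of dim genes also hung on the background correction. With normexp on median spot signals, which adds 50 units to every signal, 75 of 287 named genes had a fold over 1.5 times away from the reported one, and of these 0 had a larger fold. Folds under that setting are therefore given below beside each printed lower bound and some of the largest changes. Each lower bound holds for the reported background treatment. Other genes that moved are given below at the reported size alone. With normexp Acta1 fell 31.4-fold instead of 77.6-fold, Tvp23a 7.37-fold instead of 26.1-fold and Mmp7 6.54-fold instead of 24.5-fold. Further examples are Ankrd2, Myoz1, Hbb-bs, Siglec1, Igf1, Oas1a, Rgs5 and Fas.

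**Figure D1:**
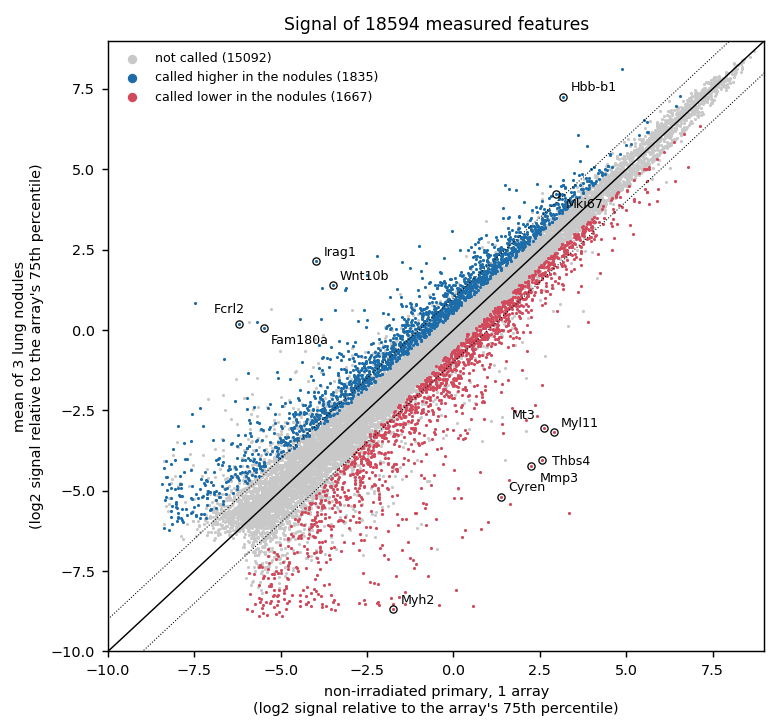
Mean log2 signal of the 3 lung nodules (vertical axis) against that of the non-irradiated primary (horizontal axis), both relative to the array's 75th percentile, for 18594 measured features. Solid line: equal signal. Dotted lines: 2-fold differences. The 1835 features called higher and 1667 called lower spread to both sides of the line, with Irag1, Fcrl2 and Wnt10b far above it and Myh2, Cyren, Mmp3 and Thbs4 far below.

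The labelled tissues were checked against defining markers of cell types. Vim, an intermediate filament of mesenchymal and glial cells, lay at 5.48, 6.13 and 6.23 in nodules 1, 2 and 3 and 5.04 in the primary. The glial protein S100b lay at 1.26, -0.38 and -0.93 in nodules 1, 2 and 3 and 1.44 in the primary, so that only nodule 1 came near the primary. Gfap, the filament of mature astrocytes, and Olig2, a factor of the oligodendrocyte lineage, were not well above background on any of the 4 arrays. Some lung markers separated the nodules from each other. Sftpd, a surfactant protein of alveolar type 2 cells, lay at 4.46 and 2.27 in nodules 1 and 2, at -6.00 in nodule 3 and at -5.92 in the primary. Scgb1a1, the secretoglobin of airway club cells, lay at 4.11 and 3.09 in nodules 1 and 2 and at -5.27 in both nodule 3 and the primary. Heart markers behaved the other way. Myh6, a myosin heavy chain of heart muscle, lay at -2.84, -3.03 and 3.87 in nodules 1, 2 and 3 and -5.01 in the primary. Nppa, the atrial natriuretic peptide, was well above background in nodule 3 alone, at 2.63. Not every lung marker followed: Sftpc, another surfactant protein, lay at -1.04, -3.65 and -3.62 in nodules 1, 2 and 3 and at -1.89 in the primary, and Foxj1, a factor of ciliated cells, at -1.14, -2.03 and -3.72 against -2.28. In these lists 0 of 10 alveolar type 1 and 0 of 7 alveolar type 2 genes passed the test. Of 12 airway genes 1 passed (Tppp3, higher), and of 20 heart genes 2 (Casq2 higher, Myl3 lower). Of all named genes 21.8% passed. The test took its spread from the 3 nodules, so a gene high in only 1 or 2 of them could hardly pass. The counts therefore do not show how much lung or heart tissue the nodules held. The part of lung or heart tissue in the differences below was not tested. The T cell markers Cd3e and Cd8a and the fat marker Adipoq were not well above background on any of the 4 arrays. Fabp4, another fat marker, was well above background in every nodule, at -4.64, -4.43 and -2.14 in nodules 1, 2 and 3. It was not in the primary, at -5.79. In bulk tumours, fewer cells of a type and less RNA per cell cannot be told apart.

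**Figure D2:**
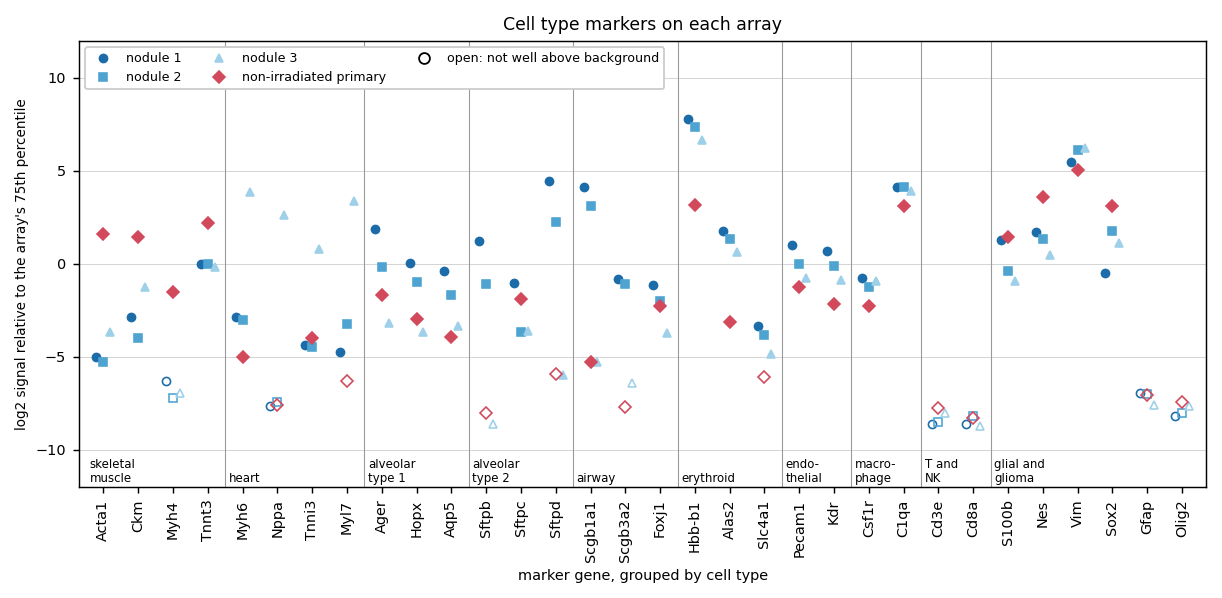
Log2 signal relative to the array's 75th percentile (vertical axis) of a part of the cell type markers (horizontal axis) on each of the 4 arrays. Of the macrophage markers, Csf1r and C1qa, which rose, are drawn, and Cd68 and Cd163, which fell, are not. Filled symbols are well above background and open symbols are not. Sftpd and Scgb1a1 are high in nodules 1 and 2 alone, Myh6, Nppa and Myl7 in nodule 3 alone, and the muscle genes Acta1, Ckm and Tnnt3 in the primary.

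Genes of mitosis rose in the nodules. Of 69 measured genes of the spindle, the kinetochore and the end of mitosis, 43 rose, 1 fell and 25 did not pass, with a median of 0.86 against 0.04 over all features. In 59 of the 69 all nodules lay above the primary, against 41.6% of all named genes. Of the 69, 20 were at least 2-fold higher in every nodule, against 5.4% of all features. Leaving out 1 nodule kept the medians of the spindle, kinetochore and late mitosis lists between 0.62 and 1.07. The division marker Mki67 lay at 4.14, 4.19 and 4.41 in nodules 1, 2 and 3 and 2.98 in the primary. It rose by 1.27 on the log2 scale (SE 0.15, adjusted p = 0.0147), or 2.40-fold.

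Many mitotic genes share short promoter letters: the cell cycle homology region (CHR), TTTGAA, to which the MuvB complexes bind, and the CCAAT box, CCAAT, to which NF-Y binds. The promoters of 5 risen genes with a CHR and of 2 with a CCAAT box alone are shown because they hold the letters that this group is known for. Each is the RefSeq sequence of 120 bases that ends just before the transcription start in the rat build GRCr8, read 5′ to 3′ along the gene's strand. Capitals mark TTTGAA and CCAAT on either strand (TTCAAA and ATTGG on the other).
Mki67 (chr1:199952594-199952713, minus strand): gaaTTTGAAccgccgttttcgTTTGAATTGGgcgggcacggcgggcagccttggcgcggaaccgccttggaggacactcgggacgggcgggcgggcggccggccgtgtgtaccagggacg
Spc25 (chr3:74396719-74396838, minus strand): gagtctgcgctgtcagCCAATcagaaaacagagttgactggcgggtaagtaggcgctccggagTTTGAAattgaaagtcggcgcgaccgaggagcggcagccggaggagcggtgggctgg
Cep55 (chr1:245245243-245245362, plus strand): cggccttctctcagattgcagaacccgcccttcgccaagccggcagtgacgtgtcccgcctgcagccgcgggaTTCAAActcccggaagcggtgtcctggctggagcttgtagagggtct
Cenpi (chrX:101809539-101809658, plus strand): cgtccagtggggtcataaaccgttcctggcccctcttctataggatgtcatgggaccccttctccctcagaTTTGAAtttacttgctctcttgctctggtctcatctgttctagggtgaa
Cit (chr12:46424657-46424776, minus strand): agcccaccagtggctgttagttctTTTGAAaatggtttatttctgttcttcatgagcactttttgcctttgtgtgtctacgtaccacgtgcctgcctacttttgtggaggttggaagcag
Kif11 (chr1:244536747-244536866, plus strand): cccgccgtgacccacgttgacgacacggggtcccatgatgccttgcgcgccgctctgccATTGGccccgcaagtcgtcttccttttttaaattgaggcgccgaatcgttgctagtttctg
Plk1 (chr1:186147538-186147657, plus strand): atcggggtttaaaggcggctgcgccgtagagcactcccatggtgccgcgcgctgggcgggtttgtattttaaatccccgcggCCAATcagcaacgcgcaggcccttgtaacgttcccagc
In the promoter of Mki67 the second TTTGAA overlaps an ATTGG by 1 base, and the motifs run together. Over the 250 bases before the start, either strand, a CHR stood in 26 of 59 measured mitotic genes with a promoter in the table (44.1%), in 10.6% of 8978 measured named genes and in 16.0% of all 27457 promoters. The CCAAT box stood in 35 of the 59 (59.3%), against 36.0% of measured named genes and 34.3% of all promoters. Among the mitotic genes the letters did not separate those that rose from the rest: the CHR stood in 16 of 36 risen genes (44.4%) and in 10 of 23 not called (43.5%). These shares describe letters in a window, not bound sites.

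Among spindle motors and microtubule proteins, 17 of 23 measured genes rose, 0 fell and 6 did not pass (median 1.01). Kif11, the motor that pushes the spindle poles apart, lay at 1.38, 1.47 and 1.71 in nodules 1, 2 and 3 and -0.26 in the primary and rose by 1.78 (SE 0.17, adjusted p = 0.0126), or 3.44-fold. Kif20a, a motor of the central spindle, lay at 3.61, 3.42 and 3.64 in nodules 1, 2 and 3 and 1.89 in the primary and rose by 1.66 (SE 0.14, adjusted p = 0.0107). Every nodule lay at least 1.53 above the primary for Kif20a. Tpx2, which activates Aurora A on the spindle, rose by 1.51, Ckap2 by 1.47, the mitotic kinase Plk1 by 1.44 and the microtubule-removing motor Kif2c by 1.41. Adjusted p-values of these genes lay between 0.0131 (Tpx2) and 0.0217 (Plk1). The Aurora kinase gene Aurka lay at 1.32, 1.59 and 1.76 in nodules 1, 2 and 3 and 0.46 in the primary, with adjusted p = 0.0296.

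At the kinetochore, the plate that ties chromosomes to the spindle, 14 of 24 measured genes rose, 1 fell and 9 did not pass (median 0.66). Cenpw, a protein of the centromere, lay at 1.86, 1.92 and 2.07 in nodules 1, 2 and 3 and 0.47 in the primary and rose by 1.48 (SE 0.14, adjusted p = 0.0122). Ndc80, which holds the microtubule, lay at 1.69, 1.68 and 1.80 in nodules 1, 2 and 3 and 0.28 in the primary and rose by 1.44 (SE 0.12, adjusted p = 0.0111). Spc25, a partner of Ndc80, rose by 0.85 (adjusted p = 0.0223), Dlgap5 by 1.21 (adjusted p = 0.0145) and the checkpoint kinase Bub1 by 1.04 (adjusted p = 0.0342). Zwint, which recruits checkpoint proteins, was the only fall: it lay at 1.97, 2.10 and 2.11 in nodules 1, 2 and 3 and 2.92 in the primary and fell by 0.86 (SE 0.12, adjusted p = 0.019). Of 22 genes of anaphase, cytokinesis and condensation, 12 rose and 10 did not pass (median 0.82). The mitotic kinase Pbk lay at -0.87, -1.28 and -0.71 in nodules 1, 2 and 3 and -2.87 in the primary and rose by 1.91 (SE 0.26, adjusted p = 0.0183). The abscission protein Cep55 rose by 1.23 (adjusted p = 0.0157), Cdc20, which activates the anaphase-promoting complex, by 1.20 (adjusted p = 0.0185), and the conjugating enzyme Ube2c by 1.08 (adjusted p = 0.0296). Cenpf, Cit, Espl1 and Cenpi also rose. These 4 genes, Bub1 and Ube2c lost the call in 2 to 4 of 9 other processing settings (adjusted p up to 0.353 for Bub1 and 0.0686 for the others).

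**Figure D3:**
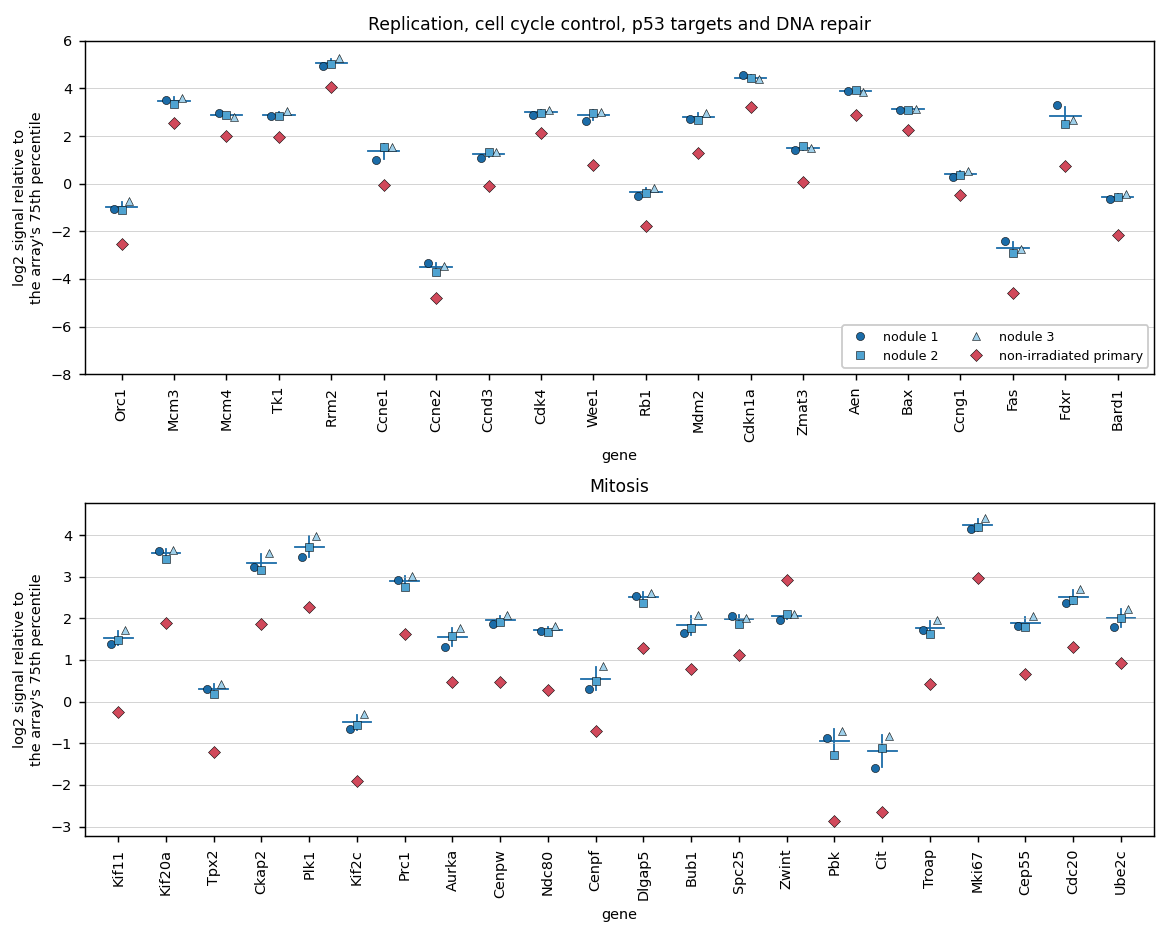
Log2 signal relative to the array's 75th percentile (vertical axes) of replication, cell cycle, p53 and repair genes (upper panel) and mitotic genes (lower panel) on the 4 arrays. Blue bars are the mean ± SD of 3 nodules. The primary lies below all nodules for every gene drawn except Zwint, where it lies above them.

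Of 31 measured genes that copy DNA, 6 rose, 0 fell and 25 did not pass (19.4% called, against 21.8% of all named genes), with a median of 0.43. Orc1, the largest subunit of the origin recognition complex, lay at -1.08, -1.11 and -0.72 in nodules 1, 2 and 3 and -2.52 in the primary and rose by 1.55 (SE 0.22, adjusted p = 0.0187). Mcm3 and Mcm4, subunits of the replicative helicase, rose by 0.92 (adjusted p = 0.0227) and 0.88 (adjusted p = 0.0184). Pola1, the catalytic subunit of the polymerase that primes synthesis, rose by 1.22 (adjusted p = 0.0328). Of 14 genes of nucleotide synthesis, 4 rose and 10 did not pass (median 0.54), among them thymidine kinase Tk1, by 0.95 (adjusted p = 0.0196), and the ribonucleotide reductase subunit Rrm2, by 1.00 (adjusted p = 0.0258). Among 29 cyclins, kinases and their regulators, 6 rose and 23 did not pass (20.7% called, median 0.42). Wee1, the kinase that holds back entry into mitosis, lay at 2.64, 2.98 and 3.01 in nodules 1, 2 and 3 and 0.79 in the primary and rose by 2.08 (SE 0.19, adjusted p = 0.0116), or 4.24-fold. Ccnd3, a D-type cyclin, rose by 1.36 (adjusted p = 0.0145) and its kinase Cdk4 by 0.87 (adjusted p = 0.0207). Ccne1, the cyclin of S phase entry, rose by 1.42 (adjusted p = 0.0306), and Rb1, which restrains that entry, by 1.40 (adjusted p = 0.0171). Pola1, Rrm2, Ccne1, Ccne2, Gins1, Timeless, Tyms and Impdh2 lost their call in 1 to 4 of 9 other processing settings (adjusted p up to 0.0927).

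Of 28 measured targets of p53, 10 rose, 2 fell and 16 did not pass (42.9% called, median 0.35). Cdkn1a, the p21 inhibitor of cyclin-dependent kinases, lay at 4.56, 4.43 and 4.38 in nodules 1, 2 and 3 and 3.22 in the primary. It rose by 1.24 (SE 0.13, adjusted p = 0.0131), or 2.36-fold. Mdm2, the ligase that removes p53, lay at 2.72, 2.69 and 2.97 in nodules 1, 2 and 3 and 1.27 in the primary and rose by 1.53 (SE 0.16, adjusted p = 0.0131). Among genes of cell death, the receptor Fas lay at -2.41, -2.91 and -2.74 in nodules 1, 2 and 3 and -4.61 in the primary and rose by 1.92 (SE 0.27, adjusted p = 0.0188), Bax rose by 0.87 (adjusted p = 0.0153) and the nuclease Aen by 1.01 (adjusted p = 0.0145). Fdxr, the ferredoxin reductase of mitochondria, lay at 3.28, 2.51 and 2.68 in nodules 1, 2 and 3 and 0.75 in the primary and rose by 2.08 (SE 0.32, adjusted p = 0.0222), the largest rise among these targets. Zmat3 rose by 1.41 (adjusted p = 0.0115), the cyclin Ccng1 by 0.88 (adjusted p = 0.0286), the phosphatase Ppm1d by 0.85 (adjusted p = 0.0338) and the bypass polymerase Polk by 0.83 (adjusted p = 0.031). Tp53i11 fell by 1.29 (adjusted p = 0.0146) and Tigar by a log2 difference of -0.56 (adjusted p = 0.0465), a call that was lost in 5 of 9 other settings (adjusted p up to 0.211). Ccng1, Polk and Ppm1d lost theirs in 1 or 2 (adjusted p up to 0.0649). The irradiated primary, on 1 array, lay at 4.65 for Cdkn1a, 3.14 for Mdm2, 2.10 for Zmat3 and 1.56 for Ccng1. Its values for the other targets are not given here, and the part of irradiation was not tested.

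Of 31 measured DNA repair genes, 5 rose, 0 fell and 26 did not pass (median 0.29), a share of calls of 16.1% that lies below that of all named genes. Bard1, the partner of BRCA1, lay at -0.66, -0.55 and -0.43 in nodules 1, 2 and 3 and -2.18 in the primary and rose by 1.63 (SE 0.16, adjusted p = 0.0126). Fancb, of the Fanconi core complex, rose by 1.30 (adjusted p = 0.0218). Parp1 and the Ku subunit Xrcc6, which detect breaks, rose by 1.03 (adjusted p = 0.0352) and 0.70 (adjusted p = 0.0291), and both lost the call in 2 of 9 other settings (adjusted p up to 0.0692).

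The largest rise of a gene well above background on all 4 arrays was that of Irag1, a protein of smooth muscle and platelets that curbs calcium release from stores. Irag1 lay at 2.26, 2.21 and 1.93 in nodules 1, 2 and 3 and -3.97 in the primary and rose by 6.10 (SE 0.18, adjusted p = 0.00688), or 68.6-fold. Fam180a, a secreted protein, lay at 0.48, -0.08 and -0.16 in nodules 1, 2 and 3 and -5.49 in the primary and rose by 5.57 (SE 0.31, adjusted p = 0.00761). The Wnt ligand Wnt10b lay at 1.45, 1.29 and 1.47 in nodules 1, 2 and 3 and -3.49 in the primary, and the nodules differed from each other by far less than from the primary. Wnt10b rose by 4.89 (SE 0.14, adjusted p = 0.00688), or 29.6-fold. Tppp3, a microtubule-binding protein that is abundant in ciliated cells, lay at 1.67, 1.82 and 1.61 in nodules 1, 2 and 3 and -2.49 in the primary and rose by 4.19 (SE 0.14, adjusted p = 0.0074). The tetraspanin Cd81 lay at 2.49, 0.26 and 1.14 in nodules 1, 2 and 3 and -3.11 in the primary, with a wide spread between nodules, and rose by 4.41 (SE 0.85, adjusted p = 0.0328). Nbl1, a secreted antagonist of bone morphogenetic proteins, lay at -0.61, 1.27 and 1.22 in nodules 1, 2 and 3 and -3.42 in the primary and rose by 4.05 (SE 0.81, adjusted p = 0.0355). Ehbp1l1, which takes part in vesicle transport, rose by 4.18 (adjusted p = 0.00936) and the complement protein C3 by 3.61 (adjusted p = 0.0126). Cd81 and Nbl1 each lost the call in 1 of 9 other settings (adjusted p = 0.0549 and 0.0587). With normexp the rises were 36.1-fold for Irag1, 12.1-fold for Fam180a and 16.5-fold for Wnt10b.

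**Figure D4:**
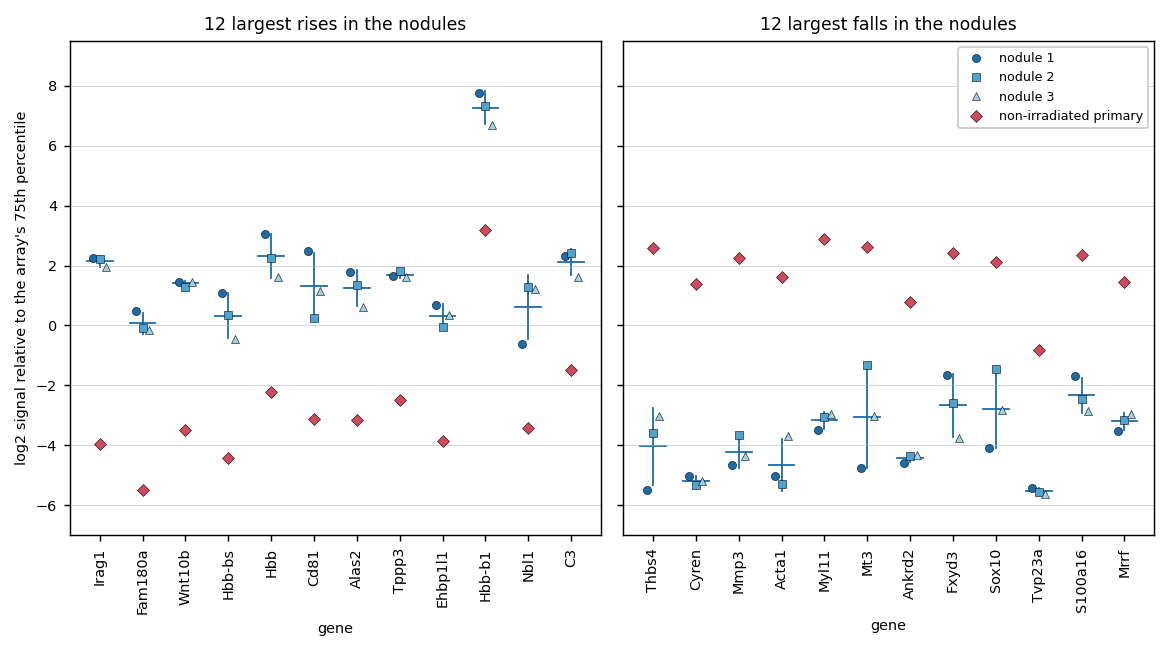
Log2 signal relative to the array's 75th percentile (vertical axis) of the 12 largest rises (left) and 12 largest falls (right) among called genes well above background on all 4 arrays. Blue bars are the mean ± SD of 3 nodules. The red diamond of the primary lies outside the range of the nodules for every gene, which the rule for a call requires. The nodules spread widely for Cd81, Nbl1, Thbs4, Mt3 and Sox10.

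In some genes the nodules and not the non-irradiated primary were well above background, so that the difference is a lower bound. It was taken against the lowest well-detected signal of that primary array or, where that was higher, the probe's own signal there. The receptor-like protein Fcrl2 lay at 0.67, -0.08 and 0.02 in nodules 1, 2 and 3 and was at least 80.2-fold higher (adjusted p = 0.00761). Itih4, a plasma protein that binds hyaluronan complexes, was at least 61.2-fold higher (adjusted p = 0.0153), with nodule levels of 0.83, -0.86 and 0.78. Cd83, a membrane protein of activated dendritic and B cells, was at least 24.4-fold higher (adjusted p = 0.00761), with nodule levels of -1.25, -1.17 and -1.60. With normexp the rises of Fcrl2, Itih4 and Cd83 were 14.7-fold, 13.2-fold and 6.66-fold. The irradiated primary, on 1 array, was well above background for these genes too, at -0.24, -3.95 and -1.61. The next 5 bounds belonged to genes that did not pass the test and were high in 1 or 2 of the nodules. Myl7 and Myh7, myosin chains of heart muscle, stood at 3.37 and 2.60 in nodule 3 and between -4.75 and -3.21 in nodules 1 and 2 (adjusted p = 0.349 and 0.322). Cyp2f4, a cytochrome of airway cells, stood at -0.88, -0.38 and -5.18 in nodules 1, 2 and 3 (adjusted p = 0.149). Ism1 stood at 0.51, -1.80 and -4.74 (adjusted p = 0.166) and Ms4a6bl1 at -4.31, -0.86 and -1.14 (adjusted p = 0.124). In all, 437 named genes were well above background in every nodule and not in the primary, and 119 in the primary and in no nodule.

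Globin genes and a gene of haem synthesis rose in the nodules. Of 13 measured erythroid genes, 6 rose, 1 fell and 6 did not pass (median 0.89). Hbb-b1, a beta globin, lay at 7.77, 7.33 and 6.68 in nodules 1, 2 and 3 and 3.17 in the primary and rose by 4.09 (SE 0.43, adjusted p = 0.0131), or 17.0-fold. Hba-a1, an alpha globin, rose by 3.23 (adjusted p = 0.0124), Hbb by 4.53 (adjusted p = 0.0151) and Hbb-bs by 4.77 (adjusted p = 0.0153). The globin copies are nearly identical, so their probes may read each other's RNA. Alas2, the first enzyme of haem synthesis in red cell precursors, lay at 1.77, 1.35 and 0.61 in nodules 1, 2 and 3 and -3.15 in the primary and rose by 4.40 (SE 0.46, adjusted p = 0.0131). Bpgm, the red cell enzyme that makes 2,3-bisphosphoglycerate, fell by 1.13 (adjusted p = 0.0132). The band 3 anion exchanger Slc4a1 was not well above background in the primary and stood at -3.32, -3.86 and -4.87 in the nodules (adjusted p = 0.0867).

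Skeletal muscle genes fell, and their list had the lowest median of the 56 examined. Of 27 measured, 18 fell, 1 rose and 8 did not pass, with a median of -2.71 that stayed between -3.39 and -2.61 when 1 nodule was left out. In 20 of the 27 every nodule lay at least 2-fold below the primary, against 6.34% of all features. Acta1, the actin of skeletal muscle, lay at -5.02, -5.29 and -3.68 in nodules 1, 2 and 3 and 1.61 in the primary and fell by 6.28 (SE 0.66, adjusted p = 0.0132). The fast myosin light chain Myl11 lay at -3.51, -3.05 and -2.96 in nodules 1, 2 and 3 and 2.90 in the primary and fell by 6.07 (SE 0.25, adjusted p = 0.00761). Ankrd2, a stretch-sensing protein of the sarcomere, fell by 5.20 (adjusted p = 0.0074), the Z-disc protein Myoz1 by a log2 difference of -4.10 (adjusted p = 0.00761) and the fast troponin Tnnt3 by -2.29 (adjusted p = 0.00819). Myosin heavy chains Myh4 and Myh2 and the myosin-binding protein Mybpc1 were not well above background in any nodule and were at least 34.1-fold, 29.7-fold and 37.3-fold lower (adjusted p = 0.01, 0.00761 and 0.00787), and with normexp 5.89-fold, 7.59-fold and 6.42-fold lower. Creatine kinase Ckm lay at -2.86, -3.99 and -1.27 in nodules 1, 2 and 3 and 1.42 in the primary and did not pass (adjusted p = 0.0557). The member that rose was Eno3, a glycolytic enolase, by 1.17 (adjusted p = 0.0134). Desmin, Des, a filament of all muscle types, fell by 2.41 (adjusted p = 0.0145). The part of muscle tissue in other differences between nodules and primary was not tested.

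The other large falls belonged to genes of various functions. Thbs4, a thrombospondin of the matrix, lay at -5.49, -3.60 and -3.02 in nodules 1, 2 and 3 and 2.58 in the primary and fell by 6.61 (SE 0.98, adjusted p = 0.0202), or 97.9-fold (53.8-fold with normexp). Cyren, which restrains end joining of DNA breaks, lay at -5.02, -5.33 and -5.20 in nodules 1, 2 and 3 and 1.38 in the primary and fell by 6.56 (SE 0.24, adjusted p = 0.0074). Sox10, a factor of the neural crest and of oligodendrocytes, lay at -4.09, -1.47 and -2.82 in nodules 1, 2 and 3 and 2.10 in the primary and fell by 4.90 (SE 0.99, adjusted p = 0.0365). The brain metallothionein Mt3 lay at -4.76, -1.32 and -3.04 in nodules 1, 2 and 3 and 2.62 in the primary, the widest spread between nodules among these falls, and fell by 5.66 (SE 1.30, adjusted p = 0.0467). Fxyd3, a regulator of the sodium pump, fell by 5.08 (adjusted p = 0.0226), the calcium-binding protein S100a16 by a log2 difference of -4.69 (adjusted p = 0.0126), the ribosome recycling factor Mrrf by -4.64 (adjusted p = 0.00819) and the Golgi protein Tvp23a by -4.71 (adjusted p = 0.00761). Zfp2 was at least 44.9-fold, Plcxd3 at least 33.2-fold, Nxf3 at least 28.6-fold and Rph3al at least 27.0-fold lower, with none of them well above background in any nodule (adjusted p = 0.01, 0.00909, 0.0105 and 0.00872). With normexp these falls were 8.06-fold, 5.89-fold, 6.76-fold and 5.43-fold, and that of Cyren was 29.5-fold. The irradiated primary, on 1 array, lay at -6.31 for Zfp2, -7.99 for Plcxd3, -7.81 for Nxf3 and -4.59 for Rph3al. Of these genes only Rph3al was well above background on that array. Mt3 lost its call in 4 of 9 other settings and Sox10 in 1 (adjusted p up to 0.0734 and 0.0596).

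Of 28 measured glial and glioma markers, 2 rose, 5 fell and 21 did not pass (median -0.30). The share called was 25%, against 21.8% of all named genes. Nes, the filament of neural progenitors, lay at 1.72, 1.33 and 0.46 in nodules 1, 2 and 3 and 3.60 in the primary and fell by 2.43 (SE 0.49, adjusted p = 0.0364). Sox2, a factor of neural stem cells, lay at -0.49, 1.76 and 1.12 in nodules 1, 2 and 3 and 3.08 in the primary and did not pass (adjusted p = 0.135). Sox4 fell by 1.10 (adjusted p = 0.0315), glutamine synthetase Glul by a log2 difference of -0.67 (adjusted p = 0.0275) and the nuclear factor Nfia by -1.32 (adjusted p = 0.0296), while its relative Nfib rose by 0.92 (adjusted p = 0.0161). The membrane protein Gpm6a was not well above background in the primary and was at least 3.84-fold higher in the nodules (adjusted p = 0.0162, 1.76-fold with normexp). Nes, Sox4, Glul, Nfia and Gpm6a lost their call in 1 or 2 other settings (adjusted p up to 0.0727).

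Of 33 measured matrix proteases and inhibitors, 2 rose, 4 fell and 27 did not pass (median 0.05). The share called was 18.2%, against 21.8% of all named genes. Mmp3, stromelysin-1, lay at -4.67, -3.64 and -4.34 in nodules 1, 2 and 3 and 2.24 in the primary and fell by 6.46 (SE 0.42, adjusted p = 0.00872), or 87.9-fold (40.5-fold with normexp). Stromelysin-2, Mmp10, was at least 41.7-fold lower (adjusted p = 0.0193) and collagenase-3, Mmp13, at least 7.61-fold lower (adjusted p = 0.0198), both below the background criterion in all nodules, and 7.71-fold and 2.37-fold lower with normexp. Matrilysin, Mmp7, met it in 2 of 3 nodules and fell from -1.08 to -6.74, -5.06 and -5.29 (adjusted p = 0.0221). Gelatinase A, Mmp2, lay at 5.01, 3.93 and 4.11 in nodules 1, 2 and 3 and 1.80 in the primary and rose by 2.55 (SE 0.45, adjusted p = 0.0274), and the aggrecanase Adamts5 was at least 8.68-fold higher (adjusted p = 0.00909, 2.43-fold with normexp). Among 17 collagens, the fibrillar genes Col1a2 and Col3a1 rose by 1.87 (adjusted p = 0.0146) and 1.38 (adjusted p = 0.0126). Col5a3 fell by 1.04 (adjusted p = 0.0213) and 14 did not pass, so that 17.6% were called. Fmod, a proteoglycan that shapes collagen fibrils, lay at 4.17, 4.58 and 4.77 in nodules 1, 2 and 3 and 1.48 in the primary and rose by 3.02 (SE 0.25, adjusted p = 0.0107). Elastin, Eln, rose by 0.82 (adjusted p = 0.0176), while periostin, Postn, fell by 2.61 (adjusted p = 0.036) and the proteoglycan Acan was at least 3.46-fold lower (adjusted p = 0.0133, 1.79-fold with normexp). Over the 33 matrix glycoproteins and proteoglycans measured, 2 rose, 4 fell and 27 did not pass (18.2% called, median -0.09). Eln and Postn each lost their call in 1 of 9 other settings (adjusted p = 0.256 and 0.0563).

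Of 20 measured adhesion genes, 2 rose, 5 fell and 13 did not pass (median -0.35). Icam1, which binds leukocyte integrins, lay at -1.84, -1.67 and -2.13 in nodules 1, 2 and 3 and 0.92 in the primary and fell by 2.80 (SE 0.22, adjusted p = 0.01). N-cadherin, Cdh2, fell by 1.46 (adjusted p = 0.0157), the beta-1 integrin Itgb1 by a log2 difference of -0.72 (adjusted p = 0.0205) and the neural adhesion molecule Ncam1 by -0.79 (adjusted p = 0.0183). The alpha-4 integrin Itga4, a receptor for VCAM1, rose by 1.29 (adjusted p = 0.0332).

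Macrophage genes went both ways. Of 28 measured markers of macrophages and microglia, 9 rose, 4 fell and 15 did not pass (median 0.61). The 9 include Aif1, whose probes disagreed, at 2.38 and -3.55, and for which no direction is given. The first component of complement, C1qa and C1qb, made by macrophages, rose by 0.93 (adjusted p = 0.0192) and 1.20 (adjusted p = 0.0132). The growth factor receptor Csf1r lay at -0.79, -1.24 and -0.90 in nodules 1, 2 and 3 and -2.26 in the primary and rose by 1.29 (SE 0.23, adjusted p = 0.028). Siglec1, a sialic acid receptor, lay at -3.48, -3.02 and -3.08 in nodules 1, 2 and 3 and -5.88 in the primary and rose by 2.69 (SE 0.28, adjusted p = 0.0131). The Fc receptor Fcgr1a rose by 1.69 (adjusted p = 0.0127), Adgre1 by 1.51 (adjusted p = 0.0244) and the lipid receptor Trem2 by 1.56 (adjusted p = 0.033). The scavenger receptor Cd163 lay at -4.74, -3.46 and -3.74 in nodules 1, 2 and 3 and -1.44 in the primary and fell by 2.54 (SE 0.54, adjusted p = 0.0399). Gpnmb fell by 1.89 (adjusted p = 0.0423), the lysosomal protein Cd68 by a log2 difference of -1.12 (adjusted p = 0.0338) and the fractalkine receptor Cx3cr1 by -0.98 (adjusted p = 0.0244). Trem2, Cd163, Gpnmb and Cd68 lost their call in 1 to 4 of 9 other settings (adjusted p up to 0.0688).

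Of the class I histocompatibility genes, 5 heavy chains fell, and so did beta-2 microglobulin, the chain they share. Of 20 genes of class I presentation, 3 rose, 6 fell and 11 did not pass (median 0.01). RT1-A2, a classical heavy chain, lay at 1.99, 1.98 and 2.00 in nodules 1, 2 and 3 and 3.15 in the primary and fell by 1.16 (SE 0.11, adjusted p = 0.0122). RT1-A1 fell by 0.98 (adjusted p = 0.0145), RT1-CE10 by a log2 difference of -0.94 and RT1-CE5 by -0.82 (adjusted p = 0.0265 and 0.0214). RT1-CE16 lay at 2.43, 2.38 and 2.32 in nodules 1, 2 and 3 and 3.38 in the primary and fell (adjusted p = 0.0144). The RT1 genes are close copies, and their probes may read several of them. B2m lay at 3.65, 3.38 and 2.99 in nodules 1, 2 and 3 and 4.55 in the primary and fell by 1.21 (adjusted p = 0.0437), a call lost in 3 of 9 other settings (adjusted p up to 0.0737). The peptide transporter Tap1 rose by 0.66 (adjusted p = 0.0474), lost in 4 settings, and the non-classical RT1-M3-1 by 1.16 (adjusted p = 0.016). Of 7 genes of class II presentation, 1 rose, the costimulator Cd40, by 1.37 (adjusted p = 0.047, lost in 3 of 9 other settings), 0 fell and 6 did not pass, with a list median of -1.14.

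Of 28 interferon-stimulated genes, 4 rose, 2 fell and 22 did not pass (median -0.04). The share called was 21.4%, near the 21.8% of all named genes. Irf7, the master factor of the interferon response, lay at 1.95, 1.99 and 1.59 in nodules 1, 2 and 3 and -0.93 in the primary and rose by 2.77 (SE 0.20, adjusted p = 0.00909), or 6.82-fold. Oas1a, a sensor of double-stranded RNA, rose by 2.25 (adjusted p = 0.0144) and Irf9, a factor of the type I interferon response, by 1.00 (adjusted p = 0.0298). Isg15, the ubiquitin-like protein of the response, lay at -2.15, -2.48 and -2.51 in nodules 1, 2 and 3 and -1.24 in the primary and fell by 1.14 (SE 0.21, adjusted p = 0.0296). The irradiated primary, on 1 array, lay at 2.63 for Irf7 and 2.04 for Isg15, and its values for the other genes are not given here.

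Of 27 chemokines and cytokines, 4 rose, 5 fell and 18 did not pass (median -0.16). Ccl3 and Ccl4, attractants of monocytes, were not well above background in the primary and were at least 5.92-fold and 1.96-fold higher (adjusted p = 0.0133 and 0.0154), and 1.94-fold and 1.26-fold higher with normexp. Csf1, the growth factor of macrophages, lay at 1.77, 2.18 and 2.25 in nodules 1, 2 and 3 and 0.62 in the primary and rose by 1.44 (SE 0.22, adjusted p = 0.0218), and the neutrophil attractant Cxcl1 rose by 1.45 (adjusted p = 0.0286). Cxcl16, a membrane-bound chemokine, lay at -0.22, -0.03 and -0.50 in nodules 1, 2 and 3 and 1.91 in the primary and fell by 2.16 (SE 0.21, adjusted p = 0.0126). Oncostatin M, Osm, fell by 1.68 (adjusted p = 0.0212), Ccl6 by a log2 difference of -1.20 (adjusted p = 0.0131) and Il18 by -1.15 (adjusted p = 0.0162). Of 17 complement and acute phase genes, 4 rose, 0 fell and 13 did not pass (median -0.01). The share called was 23.5%, near the 21.8% of all named genes. Beside C3, the factor Cfb lay at -0.80, -0.44 and -0.97 in nodules 1, 2 and 3 and -2.85 in the primary. Cfb rose by 2.11 (SE 0.25, adjusted p = 0.0145) and haptoglobin, Hp, by 1.40 (adjusted p = 0.0479). Ccl4 lost its call in 1 of 7 other settings and Hp in 5 of 9 (adjusted p up to 0.191 and 0.0784).

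Of 26 genes of cholesterol synthesis, 5 rose, 0 fell and 21 did not pass (19.2% called, median 0.62), and of 15 genes of fatty acid synthesis 2 rose and 13 did not pass (13.3% called). Both shares lie below the 21.8% of all named genes. The list median was 0.23 in nodule 1, 0.65 in nodule 2 and 1.10 in nodule 3. Sqle, the squalene epoxidase, lay at 3.74, 3.69 and 4.16 in nodules 1, 2 and 3 and 2.53 in the primary and rose by 1.33 (SE 0.22, adjusted p = 0.0241). Srebf2, the factor that switches the pathway on, rose by 0.89, squalene synthase Fdft1 by 1.13, the isomerase Ebp by 1.41 and the synthase Hmgcs1 by 0.89 (adjusted p = 0.0373, 0.0366, 0.0346 and 0.0476). Scd, the desaturase that makes monounsaturated fatty acids, lay at 2.48, 2.23 and 2.79 in nodules 1, 2 and 3 and 0.18 in the primary and rose by 2.32 (SE 0.24, adjusted p = 0.0131), or 5.01-fold. Mylip, the ligase that degrades the LDL receptor, lay at -3.58, -4.08 and -4.83 in nodules 1, 2 and 3 and -1.72 in the primary and fell by 2.44 (SE 0.51, adjusted p = 0.0395). Ebp, Fdft1, Hmgcs1, Srebf2 and Mylip lost their call in 1 to 5 of 9 other settings (adjusted p up to 0.0834). The median of the cholesterol list was 0.36 without nodule 3 and 0.91 without nodule 1.

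Both measured glucose transporters of the hypoxia list fell. Of 33 genes of the hypoxia response, 4 rose, 7 fell and 22 did not pass (median -0.04). The glucose transporter Slc2a1 lay at 1.18, 0.77 and 0.61 in nodules 1, 2 and 3 and 2.66 in the primary and fell by 1.80 (SE 0.25, adjusted p = 0.0179). Slc2a3, a transporter of high affinity, lay at -2.33, -2.62 and -3.04 in nodules 1, 2 and 3 and -0.46 in the primary and fell by 2.20 (SE 0.31, adjusted p = 0.0186). Ankrd37 fell by 2.13 (adjusted p = 0.0183), Car9, a carbonic anhydrase of the cell surface, by a log2 difference of -1.19 (adjusted p = 0.0476) and the oxidase of protein folding Ero1a by -0.83 (adjusted p = 0.0309). Ddit4, an inhibitor of mTORC1, rose by 1.01 (adjusted p = 0.0186) and the lysyl oxidase Loxl2 by 1.10 (adjusted p = 0.0166). In glycolysis, where 17 of 20 genes did not pass, the phosphofructokinase Pfkm lay at 1.59, 1.45 and 1.40 in nodules 1, 2 and 3 and -0.67 in the primary and rose by 2.15 (SE 0.14, adjusted p = 0.00872). Car9 lost its call in 5 of 9 other settings and Ero1a in 2 (adjusted p up to 0.0869).

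Of 29 genes of the unfolded protein and integrated stress responses, 4 rose, 6 fell and 19 did not pass (median -0.08). Trib3, a pseudokinase induced by ATF4, lay at -3.80, -4.24 and -4.20 in nodules 1, 2 and 3 and -0.94 in the primary and fell by 3.13 (SE 0.26, adjusted p = 0.0106). Asparagine synthetase, Asns, lay at -0.28, -0.20 and -0.20 in nodules 1, 2 and 3 and 1.81 in the primary and fell by 2.04 (SE 0.13, adjusted p = 0.00841). Xbp1, the factor spliced under endoplasmic reticulum stress, fell by 1.49 (adjusted p = 0.0126), and the 2 chains of an amino acid exchanger, Slc7a5 and Slc3a2, by log2 differences of -1.12 and -0.84 (adjusted p = 0.0257 and 0.0207). The chaperone cofactor Creld2 rose by 1.31 (adjusted p = 0.0183) and Hsp90b1 by 0.74 (adjusted p = 0.0216). In the list of heat shock and immediate early genes, 11 of 35 rose, 4 fell and 20 did not pass (median 0.30). Hspd1, the mitochondrial chaperonin, lay at 4.86, 4.86 and 4.97 in nodules 1, 2 and 3 and 3.50 in the primary and rose by 1.40 (SE 0.12, adjusted p = 0.0108), with its partner Hspe1 at 0.93 (adjusted p = 0.0157). Hsph1, a nucleotide exchange factor of Hsp70, rose by 2.42 (adjusted p = 0.0115) and Hsp90aa1 by 1.00 (adjusted p = 0.0145). Hsp90b1 lost its call in 1 of 9 other settings (adjusted p = 0.0503).

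Immediate early genes did not share 1 direction. The orphan receptor Nr4a2 lay at 1.18, 0.98 and 0.99 in nodules 1, 2 and 3 and -0.99 in the primary and rose by 2.04 (SE 0.15, adjusted p = 0.00914). The phosphatase Dusp1 rose by 2.52 (adjusted p = 0.0309) and Fos by 1.36 (adjusted p = 0.0256), while Fosl2 fell by 2.20 (adjusted p = 0.0146) and Myc by a log2 difference of -1.26 (adjusted p = 0.033). Of 23 antioxidant and metallothionein genes, 4 rose, 5 fell and 14 did not pass (median -0.29). Beside Mt3, the zinc exporter Slc30a1 lay at -2.55, -2.47 and -2.14 in nodules 1, 2 and 3 and 0.23 in the primary and fell by 2.61 (SE 0.22, adjusted p = 0.0111), and Mt1 fell by 1.25 (adjusted p = 0.0319). Superoxide dismutase Sod1 rose by 0.86 (adjusted p = 0.0198). Dusp1, Myc and Mt1 lost their call in 1 or 2 of 9 other settings (adjusted p up to 0.0578).

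In the Wnt pathway 4 ligands rose, while another ligand and 2 receptors fell. Of 31 genes measured, 5 rose, 4 fell and 22 did not pass (median 0.07). Beside Wnt10b, the ligands Wnt5a, Wnt4 and Wnt7b were not well above background in the primary and were at least 7.31-fold, 2.58-fold and 1.76-fold higher (adjusted p = 0.0318, 0.0234 and 0.0457). With normexp these folds were 2.44, 1.31 and 1.10. Nkd1, an inhibitor that the pathway itself induces, lay at -0.73, -0.68 and -1.10 in nodules 1, 2 and 3 and -3.78 in the primary and rose by 2.95 (SE 0.24, adjusted p = 0.0102). The receptors Fzd1 and Fzd3 fell by log2 differences of -1.63 and -1.57 (adjusted p = 0.0352 and 0.0221), and so did the secreted antagonist Sfrp4, by -1.64 (adjusted p = 0.0273). The ligand Wnt10a went against the others, at least 3.58-fold lower (adjusted p = 0.0399, 1.60-fold with normexp). Wnt10a, Wnt5a, Wnt4 and Wnt7b lost their call in 1 to 4 of 7 other settings and Fzd1 in 1 of 9 (adjusted p up to 0.629).

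Among 28 genes of transforming growth factor beta and bone morphogenetic proteins, 4 rose, 3 fell and 21 did not pass (median 0.02). The share called was 25%, against 21.8% of all named genes. The ligand Bmp7 lay at 2.45, 2.62 and 2.79 in nodules 1, 2 and 3 and -0.98 in the primary and rose by 3.60 (SE 0.17, adjusted p = 0.00761), or 12.2-fold. Both receptors Tgfbr1 and Tgfbr2 fell, by log2 differences of -0.86 and -1.31 (adjusted p = 0.0223 and 0.0192), as did the signal carrier Smad5, by -1.28 (adjusted p = 0.0144). Of 33 growth factors and receptors, 4 rose, 5 fell and 24 did not pass (27.3% called, median -0.27). Insulin-like growth factor Igf1 lay at -1.59, -2.55 and -2.77 in nodules 1, 2 and 3 and -5.31 in the primary and rose by 3.01 (SE 0.51, adjusted p = 0.0257), while Igf2 lay at -3.70, -3.52 and -2.11 in nodules 1, 2 and 3 and -0.02 in the primary and fell by 3.10 (SE 0.67, adjusted p = 0.0421). The Kit ligand Kitlg rose by 1.37 (adjusted p = 0.0131) and the receptor Fgfr1 by 1.25 (adjusted p = 0.036), whereas Fgfr3 fell by 2.04 (adjusted p = 0.0162) and Gfra1, a receptor for glial cell line-derived factor, was at least 22.2-fold lower (adjusted p = 0.00909, 4.21-fold with normexp). Igf1 and Fgfr1 lost their call in 1 of 9 other settings and Igf2 in 4 (adjusted p up to 0.0656).

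Of 15 endothelial markers, 2 rose, 2 fell and 11 did not pass (26.7% called, median 0.77). In 9 of the 15 all nodules lay above the primary, and in 3 all lay below it. Over all named genes these shares were 41.6% and 37.6%, and 79.2% had all nodules on 1 side. Endoglin, Eng, rose by 2.04 (adjusted p = 0.0474) and the lymphatic receptor Lyve1 by 1.37 (adjusted p = 0.0434), while Flt1, a receptor for vascular growth factor, fell by 2.04 (adjusted p = 0.03). Kdr, its main signalling receptor, lay at 0.69, -0.11 and -0.85 in nodules 1, 2 and 3 and -2.18 in the primary and did not pass (adjusted p = 0.0734). The pericyte gene Rgs5 lay at -3.01, -2.72 and -3.28 in nodules 1, 2 and 3 and -5.30 in the primary and rose by 2.30 (SE 0.30, adjusted p = 0.0162), and the pericyte receptor Pdgfrb fell by 1.56 (adjusted p = 0.0447). The growth factor Vegfc, which drives lymphatic vessels, rose by 1.07 (adjusted p = 0.0179). Eng, Lyve1 and Pdgfrb lost their call in 3 or 4 of 9 other settings (adjusted p up to 0.0733).

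Core cell functions lay near the median of all features. Of 31 ribosomal protein genes, 1 rose (Rpl15), 0 fell and 30 did not pass, with a median of 0.06. For all named genes the share called was 21.8%. Oxidative phosphorylation had 4 rises, 4 falls and 26 genes not past the test among 34 (23.5% called), with a median of -0.03. Its member Ndufs1, a subunit of complex I, lay at 1.93, 1.77 and 2.05 in nodules 1, 2 and 3 and 0.49 in the primary and rose by 1.43 (SE 0.15, adjusted p = 0.0132). The other 7 calls of that list were each lost in 2 to 4 of 9 other settings (adjusted p up to 0.821). Among 15 housekeeping genes, B2m fell and 14 did not pass (median 0.00).

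**Figure D5:**
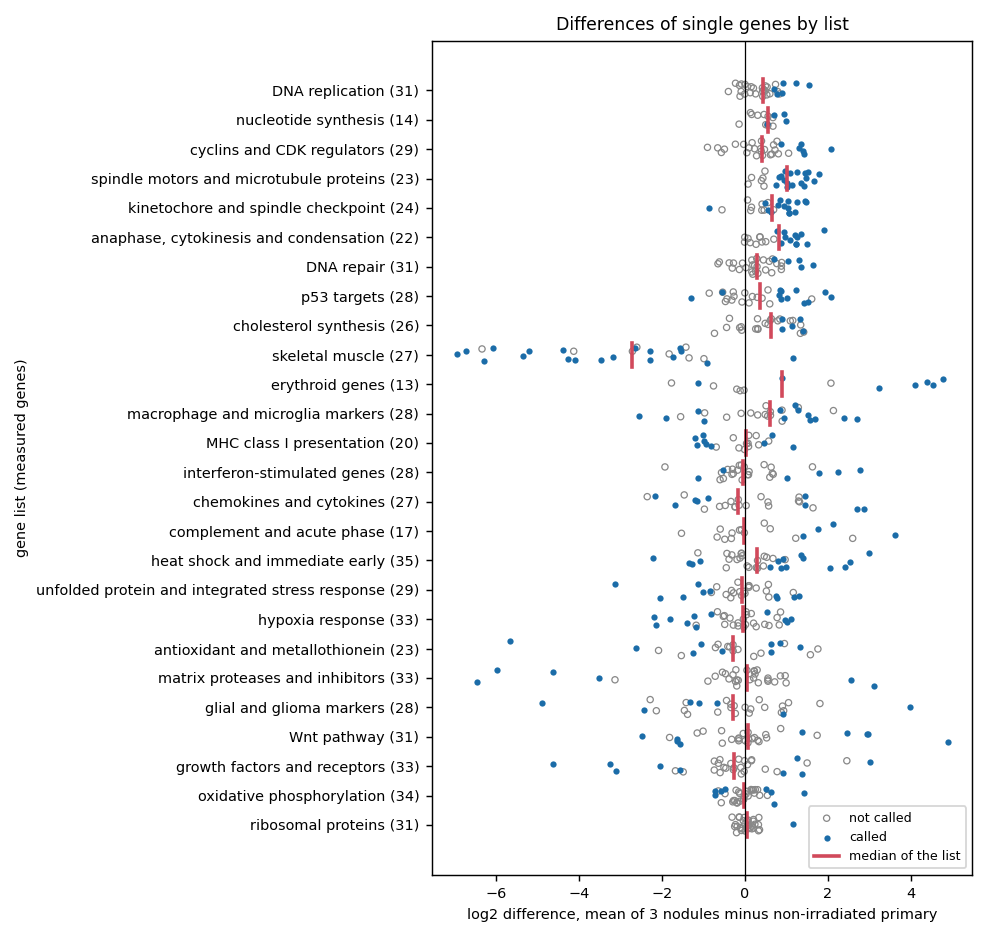
Log2 difference between the mean of 3 nodules and the non-irradiated primary (horizontal axis) of each measured gene, by list (vertical axis, with the number of genes). Filled points passed the test, open points did not, and red bars are list medians. The mitotic lists sit to the right of 0 (medians 0.66 to 1.01), skeletal muscle to the left (median -2.71), and ribosomal proteins at 0.06.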

How the data were processed

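Glass arrays for rat RNA (Agilent, single colour) had been hybridised with Cy3-labelled RNA of 5 tumour samples, prepared with RNeasy Mini and Quick Amp kits per the labels' protocols. The deposited scanner files hold intensity values that Feature Extraction 11.0 had background-corrected, per the file headers. The deposited value table holds log2 values with a median of 9.74 on each array, on 18499 probes. Its scale and direction follow the scanner values (r from 0.99958 to 0.99992), and its normalization is not given in the sources used here.

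From the scanner files, spots of a probe were averaged after outlier spots had been dropped (0.603 to 0.865% of spots), log2 of the processed signal was taken, and the 75th percentile of each array over gene probes was subtracted. Of 30367 probes, 30363 were usable and 18354 carried a gene symbol after the array's accessions were matched to the GRCr8 gene table. A named gene was read by its brightest tested probe, and 40 of 1866 genes with several probes had probes on both sides by over 0.5. limma 3.58.1 in R 4.3.3 fitted 18913 features on 5 arrays as 3 group means with an intensity trend, with 2 residual degrees of freedom, all from the nodules, and Benjamini-Hochberg adjustment. Of these features 319 were dim in both groups and were left out of the counts. For a lower bound, each dim array was given its lowest well-detected signal, or the probe's own signal where that was higher, and was set against the bright arrays' mean. No spot was saturated. The steps were tested on simulated data. The simulation drew all 5 arrays with the spread of the nodules, so it cannot show whether the primary shares that spread. The number of arrays limits the precision.

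The gene lists, members and rules were chosen with earlier results of these data known. Named are the 12 largest rises and falls among genes detected on all 4 arrays, the 8 largest bounds each way, at most 6 called genes per list each way, cell type markers, and called genes with a motif. Outside that rule, Bub1, Cdc20, Ube2c, Bax, Ccng1, Polk, Ppm1d, Myoz1, Tnnt3, C1qa, C1qb, Ero1a, Hsp90aa1 and Hspe1 were named after their values were seen. Alternatives were other scalings, filters, models and probe rules, normexp on median spot signals (a mean signal column was not used here), the deposited table, and each nodule left out. Some named items are not reported here.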

Additional observations from a re-analysis of the deposited data

How the results depend on the processing

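No paired analysis was possible because the non-irradiated primary is 1 array with no replicate number. Over the other scalings, background correction, filters, models, probe rules and the deposited table, 1235 to 1894 features were called higher and 1230 to 1798 lower, against 1835 and 1667 in the reported fit, and 46.1 to 53.3% of the calls were higher. The counts of features at least 2-fold apart in every nodule moved by over 1.5 times with normexp on median spot signals, to 407 higher and 660 lower, and the cause was not tested. Leaving out 1 nodule gave 0 to 3379 features called higher and 0 to 3065 called lower. Both counts of 0 came from leaving out nodule 2 (5008 features at an unadjusted p under 0.05). Of 282 called genes followed, 167 kept their call under every processing alternative and 115 lost it or turned under at least 1. Both reversals concern genes whose probes disagree: the difference of Ntn4 was -0.60 (limma adjusted p = 0.609) over probes above background on all 4 arrays and -0.54 (adjusted p = 0.601) in the deposited table, and that of Aif1 was -0.59 (adjusted p = 0.343) as a mean of its probes, since these choices read other probes of the genes. Apart from normexp, a fold moved by over 1.5 times for Zmat3 (to 0.72 on the log2 scale), Bub1 (0.34), Hba-a1 (2.54), Fosl2 (-1.60), Irag1 (5.44) and Myh2 (-5.79) as means of their probes and for Osm (-2.70) in the deposited table. The medians of 15 of 56 lists changed sign in some setting. The levels of genes dim in 1 group are known as bounds only, and a single primary array gives no spread of its own.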

Other observations

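The lists of guidance, Notch and homeobox genes had 23.1, 20.0 and 22.2% of their members called, near the 21.8% of all named genes, and are given for their genes alone. Of 26 measured guidance molecules, 5 rose, 1 fell and 20 did not pass (median 0.10). The 5 include Ntn4, whose probes disagreed, at 4.29 and -0.60, and for which no direction is given. The Eph receptor Epha4 was not well above background in the primary and was at least 1.72-fold higher in the nodules, which lay at -5.28, -5.84 and -4.89 (adjusted p = 0.0285 by limma), and the semaphorin Sema3e was at least 1.52-fold higher (adjusted p = 0.02). With normexp these folds were 1.31 and 1.13. The netrin receptor Unc5c lay at -4.09, -3.83 and -3.44 in nodules 1, 2 and 3 and -1.90 in the primary and fell by 1.89 (SE 0.31, adjusted p = 0.0244). Among 15 Notch genes, 2 rose, 1 fell and 12 did not pass (median 0.03): the receptor Notch1 lay at 0.77, 0.96 and 0.71 in nodules 1, 2 and 3 and -1.23 in the primary and rose by 2.04 (SE 0.16, adjusted p = 0.00996), and its target Hey2 rose by 1.95 (adjusted p = 0.0324). Of 18 homeobox genes, 1 rose, 3 fell and 14 did not pass (median 0.24). Hoxc4, a patterning factor, lay at -3.78, -3.70 and -3.87 in nodules 1, 2 and 3 and -2.59 in the primary and fell by 1.20 (SE 0.21, adjusted p = 0.0284). Epha4, Sema3e, Hey2 and Hoxc4 each lost the call in 1 other processing setting (adjusted p up to 0.504). The Wilms tumour factor Wt1, a marker of mesothelium, was at least 3.71-fold higher in the nodules (adjusted p = 0.0273, 1.39-fold with normexp), lost in 1 of 7 other settings.

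For some of the largest falls the irradiated primary, which is 1 array, also read low. These genes were chosen after their values were seen. Cyren lay between -5.33 and -5.02 in the nodules, at 1.38 in the non-irradiated primary and at -5.15 in the irradiated primary. Tvp23a lay between -5.62 and -5.41 in the nodules, at -0.82 in the non-irradiated and at -5.54 in the irradiated primary. Mrrf lay between -3.52 and -2.95 in the nodules, with 1.44 and -3.75 in the 2 primaries in the same order. Mt3 lay between -4.76 and -1.32 in the nodules, with 2.62 and -4.39. By contrast, Mmp3 lay at 0.51 and Thbs4 at 0.75 in the irradiated primary, above every nodule, where Mmp3 ranged from -4.67 to -3.64 and Thbs4 from -5.49 to -3.02.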
